A study of Homo sapiens with 8 samples.

Results

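The genes of serine synthesis and folate one-carbon metabolism are a set of 9, chosen by name: *PHGDH*, *PSAT1* and *PSPH* of the serine synthesis pathway, *SHMT2*, *MTHFD2*, *MTHFD1L* and *ALDH1L2* of the mitochondrial folate branch, and *SHMT1* and *MTHFD1* of the cytosolic folate branch. All 9 were found among the 57815 gene identifiers of the expression tables. Transcripts of ABC1 and HCC4006, both established lung adenocarcinoma cell lines, were measured by RNA-seq after 16 h with 100 μM diethylmaleate (DEM) or with vehicle, which was DMSO. The labels give both lines as free of *KEAP1* and *NRF2* mutations, and both were grown in low-glucose DMEM with fetal bovine serum. DEM is an electrophile that inhibits KEAP1, the protein that holds the transcription factor NRF2 at a low level, and the study used it to raise NRF2 in cells in which this system is intact. No group without NRF2 was among these libraries, so an effect of NRF2 and any other effect of DEM cannot be told apart. Each of the 4 groups (ABC1 vehicle, ABC1 DEM, HCC4006 vehicle and HCC4006 DEM) held 2 libraries, numbered 0 and 1, which makes 8. They were described as biological duplicates, but no label ties a library to a culture or day, so the p-values measure only the spread between these libraries.

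Serine is built from a glycolytic intermediate in 3 steps, by PHGDH, PSAT1 and PSPH. Serine hydroxymethyltransferase then moves a carbon from serine to folate, in mitochondria through SHMT2 and in the cytosol through SHMT1. Mitochondria oxidise this carbon to formate through MTHFD2 and MTHFD1L, or to carbon dioxide through ALDH1L2, and the cytosolic enzyme MTHFD1 takes up formate for the synthesis of purines and thymidylate. The pathway supplies proliferating tumour cells with nucleotides, glycine and NADPH, and ATF4, a transcription factor of the stress response to amino acid shortage, is a known activator of its genes in lung cancer cells.

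Upstream sequences of the genes that carry the results are shown for what they share. RefSeq windows on GRCh38.p14, running from 250 bases before a transcription start to 50 bases after it, were found for 6 of the 9 genes (*PHGDH*, *PSAT1*, *MTHFD2*, *MTHFD1L*, *SHMT1* and *MTHFD1*), with 9 windows in all. *PSPH*, *SHMT2* and *ALDH1L2* had no entry. The 250 bases before the start are printed, 5′ to 3′ on the plus strand, for *PSAT1* (chr9:78296875-78297124) and *MTHFD2* (chr2:74198365-74198614), which were higher with DEM, and for *MTHFD1* (chr14:64388103-64388352), which was lower. Capitals mark the letters CCAAT on the plus strand, the CCAAT box.
PSAT1: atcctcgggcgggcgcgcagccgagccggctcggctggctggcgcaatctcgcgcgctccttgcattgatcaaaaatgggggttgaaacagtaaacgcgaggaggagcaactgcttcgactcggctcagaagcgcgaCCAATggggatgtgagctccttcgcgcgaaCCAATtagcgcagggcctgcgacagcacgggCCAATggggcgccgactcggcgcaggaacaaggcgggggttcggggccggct
MTHFD2: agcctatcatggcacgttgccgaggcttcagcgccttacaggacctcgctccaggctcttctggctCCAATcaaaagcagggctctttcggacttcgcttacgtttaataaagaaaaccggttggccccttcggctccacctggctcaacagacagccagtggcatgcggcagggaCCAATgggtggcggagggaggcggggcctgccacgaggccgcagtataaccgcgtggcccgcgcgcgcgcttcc
MTHFD1: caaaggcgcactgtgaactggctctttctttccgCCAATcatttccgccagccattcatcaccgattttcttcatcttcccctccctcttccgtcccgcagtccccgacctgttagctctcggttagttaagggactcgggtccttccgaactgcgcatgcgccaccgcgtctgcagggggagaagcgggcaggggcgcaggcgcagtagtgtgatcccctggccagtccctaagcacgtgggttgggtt
Motifs were sought on both strands of the windows of 300 bases, and none of the matches of different motifs overlapped. CCAAT was found in 34.6% of the 35116 RefSeq windows and in a window of each of the 6 genes, whichever way the gene moved. This motif was added after the windows had been read, so its presence in the 6 genes is a description and no test. The share of all windows counts single windows, whereas the 6 are genes, of which *MTHFD1L* has 4 windows. TGATGNAA, the composite element read by ATF4 with a C/EBP factor, was found in 3.62% of all windows. Among the 6 genes it was found in *MTHFD1L*, where 3 of its 4 windows, which overlap, held the same match. The stretch of 30 bases at chr6:150866346-150866375 of GRCh38.p14, on the plus strand, is shown with these letters in capitals.
MTHFD1L: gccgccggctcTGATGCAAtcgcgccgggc
TGACNNNGC, the core of the antioxidant response element read by NRF2, was found in 13.3% of all windows and, among the 6 genes, in *MTHFD2*, on the minus strand 6 bases after the start and so outside the printed stretch. These are matches of letters in short windows and no measure of binding.

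Levels are given as FPKM, the fragments of a gene scaled to its transcript length and to the mapped fragments of the library. FPKM keeps no read counts, so the depth behind each value is unknown and no counting interval is given. The FPKM of a library summed to between 627085 and 737534, and in each library 12515 to 13573 genes reached 1 FPKM. Replicate libraries correlated with a Pearson's r of 0.992 to 0.995 across genes on the log2 scale. The NRF2 target genes *NQO1*, *GCLM*, *TXNRD1*, *HMOX1* and *SLC7A11* were all called higher with DEM in both lines, by 1.59 to 3.19 on the log2 scale in ABC1 and by 0.89 to 3.09 in HCC4006. In ABC1 the call of *NQO1* was lost without any 1 library (adjusted p = 0.0681 to 0.284) and those of *GCLM* (adjusted p = 0.194 and 0.137) and *TXNRD1* (adjusted p = 0.201 and 0.127) without vehicle 0 or vehicle 1. None of the 5 calls in ABC1, nor that of *NQO1* in HCC4006 (adjusted p = 0.0580), held without the expression minimum. All 5 epithelial markers (*EPCAM*, *KRT8*, *KRT18*, *KRT19* and *CDH1*) reached 1 FPKM in every library. The lung lineage markers *NKX2-1*, *NAPSA* and *SFTPB* summed to only 0.989 to 1.39 FPKM in ABC1, and none of the 3 reached 1 FPKM in every ABC1 library, against 57.0 to 63.4 FPKM and 2 of 3 in HCC4006. The mesenchymal markers *VIM*, *CDH2* and *ZEB1* summed to 236.6 to 289.9 FPKM in HCC4006 against 0.734 to 1.27 FPKM in ABC1. Nearly all of the HCC4006 sum was *VIM* (227 to 283 FPKM), with *CDH2* at 6.23 to 8.49 FPKM and *ZEB1* at 0.304 to 1.61 FPKM. In every HCC4006 library 2 of these 3 reached 1 FPKM, and none did in every ABC1 library. The leukocyte markers *PTPRC*, *CD3E* and *CD14* summed to at most 0.687 FPKM in any library. The fibroblast markers *COL1A1*, *COL1A2* and *DCN* summed to 3.58 to 6.12 FPKM in ABC1 and to 6.99 to 9.12 FPKM in HCC4006. In each line 1 of these 3, *COL1A1*, reached 1 FPKM in every library.

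With vehicle, *SHMT2* had the highest FPKM of the 9 genes and *MTHFD2* the next in both lines. In ABC1 the order of mean FPKM continued with *PSAT1*, *MTHFD1*, *PSPH*, *PHGDH*, *SHMT1* and *MTHFD1L*, where the libraries of *PSAT1* and *MTHFD1* overlapped and all other neighbours were apart. In HCC4006 it continued with *PSPH*, *MTHFD1*, *PSAT1*, *PHGDH*, *SHMT1*, *MTHFD1L* and *ALDH1L2*, all apart. Only 2 libraries stand behind each mean, so neighbours that are apart are not thereby shown to differ. *SHMT2* was at the 95.7th percentile of the genes tested in ABC1 and at the 94.3rd in HCC4006, and *MTHFD1L* at the 53.7th and 66.2nd. With DEM, *MTHFD2* had the highest mean in both lines, at the 96.6th percentile in ABC1 and the 95.1st in HCC4006. In ABC1, *SHMT1* went from above *MTHFD1L* to below it.

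**Figure D1:**
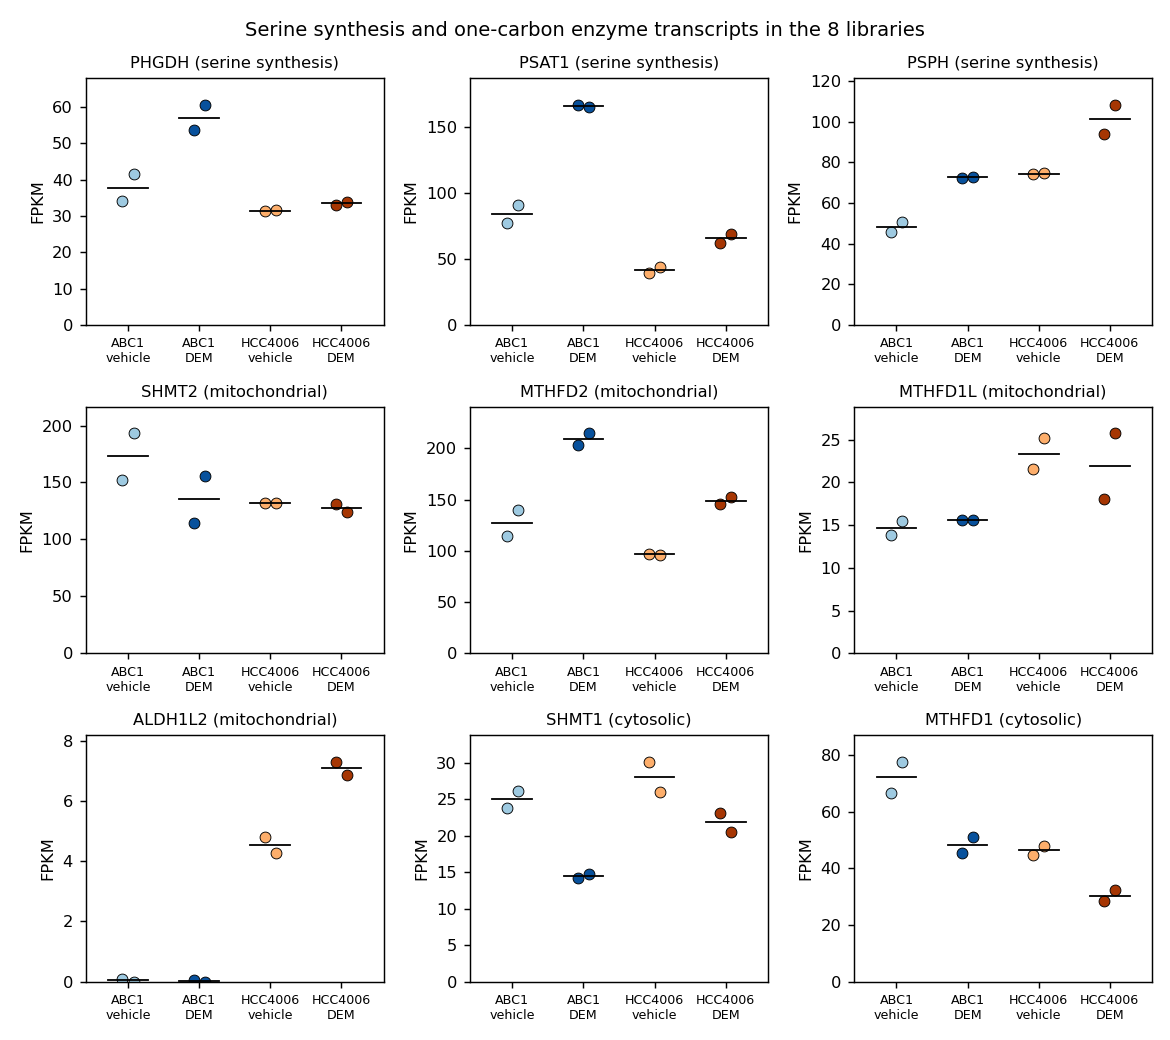
FPKM of the 9 genes in each library (points) by group, on linear axes from 0 that differ between panels, with group means as lines (n = 2 libraries a group). Within each line, *PSAT1*, *PSPH* and *MTHFD2* are higher in both DEM libraries than in both vehicle libraries, and *SHMT1* and *MTHFD1* are lower. *ALDH1L2* lies near 0 in ABC1.

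The lines differed with vehicle in 5 of the 8 genes that reached 1 FPKM on average in both, by limma on log2(FPKM + 1) over 13682 genes with Benjamini-Hochberg adjustment. *MTHFD1L* and *PSPH* were higher in HCC4006, and *PSAT1*, *MTHFD1* and *MTHFD2* were higher in ABC1. Of all genes tested, 36.8% were called higher and 30.2% lower in HCC4006, and 66.9% in either direction, so 2 of 8 higher and 3 of 8 lower are near the background. *PSAT1* was at 84.0 ± 9.48 FPKM (SD, n = 2) in ABC1 and at 41.4 ± 2.83 FPKM (SD, n = 2) in HCC4006, a log2 difference of -0.999 (adjusted p = 0.000129). *PSPH* differed the other way, by 0.62 on the log2 scale (adjusted p = 0.00104). Within serine synthesis the gene with the highest level was therefore *PSAT1* in ABC1 and *PSPH* in HCC4006. *ALDH1L2*, the mitochondrial formyl-folate dehydrogenase, was at 0.0879 and 0.00341 FPKM in the ABC1 vehicle libraries and at 4.79 and 4.29 FPKM in those of HCC4006. It passed the minimum of 1 FPKM over the 8 libraries only through HCC4006, so its difference between the lines is given as levels, with no fold and no test. The log2 differences of HCC4006 from ABC1 were 0.64 for *MTHFD1L* (adjusted p = 0.0111), -0.63 for *MTHFD1* (adjusted p = 0.00236) and -0.39 for *MTHFD2* (adjusted p = 0.0155). The difference of *MTHFD2* did not pass without ABC1 vehicle 1, HCC4006 vehicle 0 or HCC4006 vehicle 1 (adjusted p = 0.0771, 0.0690 and 0.0728), and that of *MTHFD1L* did not pass without ABC1 vehicle 0 or HCC4006 vehicle 1 (adjusted p = 0.0626 and 0.0787) or without the expression minimum (adjusted p = 0.0539). *PHGDH* (-0.25), *SHMT2* (-0.38) and *SHMT1* (0.16) did not pass, with adjusted p = 0.0933, 0.0767 and 0.252, but the first and the second did under scaling by the median of ratios (adjusted p = 0.0381 and 0.0333). With 1 vehicle library left out, the difference lay between -0.39 and -0.11 for *PHGDH* and between -0.55 and -0.21 for *SHMT2*. Both were largest in size without ABC1 vehicle 0. Of these 8 genes, 2 were higher and 5 lower in both HCC4006 libraries than in both ABC1 libraries, beside 45.4% and 39.4% of all genes tested. The line and its culture history cannot be told apart.

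The DEM libraries were next compared with the vehicle libraries of the same line, gene by gene. Within each line, the 3 genes of serine synthesis had higher FPKM in both DEM libraries than in both vehicle libraries. Of all genes tested, 25.5% in ABC1 and 29.3% in HCC4006 did so. *PSAT1* was called in both lines and *PSPH* in HCC4006, whereas *PHGDH* passed in neither. The log2 differences of the 3 genes had medians of 0.59 (ABC1) and 0.43 (HCC4006), beside -0.02 and -0.03 over all genes tested. Their summed FPKM in ABC1 went from 170.0 ± 18.3 to 295 ± 4.31 (SD, n = 2), 1.74 times as much. In HCC4006 the sum went from 147 ± 3.64 to 199.9 ± 16.0 (SD, n = 2), 1.36 times as much.

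*PSAT1* (chr9:80912041-80945009 of GRCh37, plus strand) encodes phosphoserine aminotransferase, the middle enzyme of the pathway. In ABC1 its FPKM was 77.2 and 90.7 with vehicle and 166 and 165 with DEM. In HCC4006 it was 39.4 and 43.4 with vehicle and 61.7 and 68.9 with DEM. The vehicle and DEM libraries were far apart in both lines, and the HCC4006 DEM libraries stayed below the ABC1 vehicle libraries. *PSAT1* rose by 0.98 on the log2 scale in ABC1 (adjusted p = 0.0443 by limma, standard error 0.13) and by 0.64 in HCC4006 (standard error 0.09, adjusted p = 0.00951). In ABC1 this call was lost without any 1 of the 4 libraries (log2 difference 0.86 to 1.09, adjusted p = 0.0908 to 0.320), without the expression minimum (adjusted p = 0.162) and without the mean-variance trend (adjusted p = 0.0718). In HCC4006 it held without each library (adjusted p = 0.0340 to 0.0484) and was lost without the expression minimum (adjusted p = 0.109).

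*PSPH* (chr7:56078744-56119297, minus strand), the phosphatase that releases serine, had 45.7 and 50.7 FPKM with vehicle and 72.4 and 72.7 FPKM with DEM in ABC1. HCC4006 had 74.0 and 74.8 FPKM with vehicle and 93.8 and 108 FPKM with DEM. Every DEM library lay above its vehicle libraries, and the ABC1 DEM libraries came close to the HCC4006 vehicle level. *PSPH* rose in HCC4006, with a log2 difference of 0.43 (standard error 0.09, adjusted p = 0.0245), while in ABC1 the value was 0.58 (standard error 0.12, adjusted p = 0.0819). The call in HCC4006 was lost without vehicle 0, vehicle 1 or DEM 1 (adjusted p = 0.101, 0.102 and 0.0711), without the expression minimum (adjusted p = 0.168) and without the mean-variance trend (adjusted p = 0.0630).

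*PHGDH* (chr1:120191034-120286841, plus strand) encodes the dehydrogenase that commits 3-phosphoglycerate to serine. Its FPKM in ABC1 was 34.1 and 41.6 with vehicle and 53.6 and 60.6 with DEM. HCC4006 had 31.3 and 31.6 FPKM with vehicle and 33.0 and 34.0 FPKM with DEM. Both lines were apart between groups, by a wide gap in ABC1 and a narrow one in HCC4006. The log2 difference was 0.59 in ABC1 (95% confidence interval 0.21 to 0.96, adjusted p = 0.114) and 0.09 in HCC4006 (-0.10 to 0.27, adjusted p = 0.441). The response of HCC4006 minus that of ABC1 was -0.50 (standard error 0.17, adjusted p = 0.226), which did not pass.

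The mitochondrial genes did not move together. *MTHFD2* was higher in every DEM library and *ALDH1L2* was higher in HCC4006, while *SHMT2* and *MTHFD1L* did not pass in the fit of either line. The median log2 difference was 0.09 over the 3 genes tested in ABC1 and 0.25 over the 4 tested in HCC4006.

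*MTHFD2* (chr2:74413299-74444692, plus strand) encodes the mitochondrial methylene-folate dehydrogenase, an enzyme of embryonic and tumour tissue. With vehicle it had 114 and 140 FPKM in ABC1 and 96.7 and 96.1 FPKM in HCC4006. With DEM it had 204 and 215 FPKM in ABC1 and 145 and 152 FPKM in HCC4006. The DEM libraries were above all vehicle libraries of either line. In HCC4006 *MTHFD2* rose by 0.62 on the log2 scale (adjusted p = 0.00428 by limma, standard error 0.06), and this call held under all 11 alternatives. In ABC1 the difference was 0.72 (standard error 0.15, adjusted p = 0.0789), larger in value but with a wider spread, since the vehicle libraries alone lay at 114 and 140 FPKM. It passed under scaling by the median of ratios (adjusted p = 0.0419) and in a model of all 8 libraries (adjusted p = 0.0113).

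*ALDH1L2* (chr12:105413562-105501421, minus strand) had 4.79 and 4.29 FPKM with vehicle and 7.30 and 6.86 FPKM with DEM in HCC4006. The ABC1 DEM libraries had 0.0422 and 0.00338 FPKM, as near 0 as with vehicle. In HCC4006 *ALDH1L2* rose by 0.55 on the log2 scale (adjusted p = 0.0320, standard error 0.12). This call was lost without any 1 of the 4 libraries (adjusted p = 0.0866 to 0.144) and without the expression minimum (adjusted p = 0.122). *ALDH1L2* was not tested in ABC1.

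*SHMT2* (chr12:57623356-57628718, plus strand), the mitochondrial entry point of serine carbon, had 153 and 193 FPKM with vehicle and 115 and 156 FPKM with DEM in ABC1. In HCC4006 the values were 132 and 132 FPKM with vehicle and 131 and 124 FPKM with DEM. The groups overlapped in ABC1, where both replicate pairs were spread, and lay close together in HCC4006. The log2 difference was -0.36 in ABC1 (95% confidence interval -0.86 to 0.14, adjusted p = 0.359) and -0.05 in HCC4006 (-0.21 to 0.11, adjusted p = 0.612). *MTHFD1L* (chr6:151186815-151423023, plus strand), which releases formate from formyl-folate in mitochondria, had 13.8 and 15.5 FPKM with vehicle and 15.6 and 15.6 FPKM with DEM in ABC1. In HCC4006 *MTHFD1L* had 21.5 and 25.2 FPKM with vehicle and 18.1 and 25.7 FPKM with DEM. Its HCC4006 groups overlapped, and the log2 differences were 0.09 in ABC1 (95% confidence interval -0.23 to 0.41, adjusted p = 0.732) and -0.11 in HCC4006 (-0.53 to 0.32, adjusted p = 0.696). The sign in HCC4006 turned without DEM 0 (0.14) or vehicle 1 (0.0037).

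Within each line, both cytosolic genes had lower FPKM in both DEM libraries than in both vehicle libraries. Of all genes tested, 28.2% in ABC1 and 35.3% in HCC4006 did so. *MTHFD1* fell in HCC4006, and the other values did not pass. In these bulk libraries, fewer cells that express a gene and less RNA per cell cannot be told apart. *MTHFD1* (chr14:64854749-64930175, plus strand) encodes the cytosolic enzyme that charges folate with formate and interconverts its one-carbon forms. Its FPKM was 66.7 and 77.7 with vehicle and 45.5 and 51.1 with DEM in ABC1. HCC4006 had 44.6 and 48.1 FPKM with vehicle and 28.4 and 32.5 FPKM with DEM. The shift was of nearly the same size in the lines, 0.669 times the vehicle mean in ABC1 and 0.657 times in HCC4006. On the log2 scale it was -0.59 in HCC4006 (standard error 0.10, adjusted p = 0.0135 by limma) and -0.57 in ABC1 (standard error 0.14, adjusted p = 0.105). The call in HCC4006 was lost without DEM 0 or vehicle 1 (adjusted p = 0.0566 and 0.0780) and without the expression minimum (adjusted p = 0.126).

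*SHMT1* (chr17:18231174-18266877, minus strand), the cytosolic counterpart of *SHMT2*, had 23.7 and 26.2 FPKM with vehicle and 14.2 and 14.8 FPKM with DEM in ABC1. In HCC4006 it had 30.1 and 25.9 FPKM with vehicle and 23.1 and 20.5 FPKM with DEM. The groups were apart in both lines, more widely in ABC1. The log2 difference was -0.74 in ABC1 (standard error 0.13, adjusted p = 0.0633) and -0.35 in HCC4006 (standard error 0.11, adjusted p = 0.0769). In ABC1 it passed with a minimum of 5 FPKM (adjusted p = 0.0446), with median-of-ratios scaling (adjusted p = 0.0427) and in the model of all 8 libraries (adjusted p = 0.0115). *SMCR8*, which overlaps *SHMT1* on the opposite strand, had a mean of 16.8 FPKM with DEM and 13.6 FPKM with vehicle in ABC1, and of 19.03 and 13.6 FPKM in HCC4006. Whether strand was used in quantification is not given in the sources used here.

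**Figure D2:**
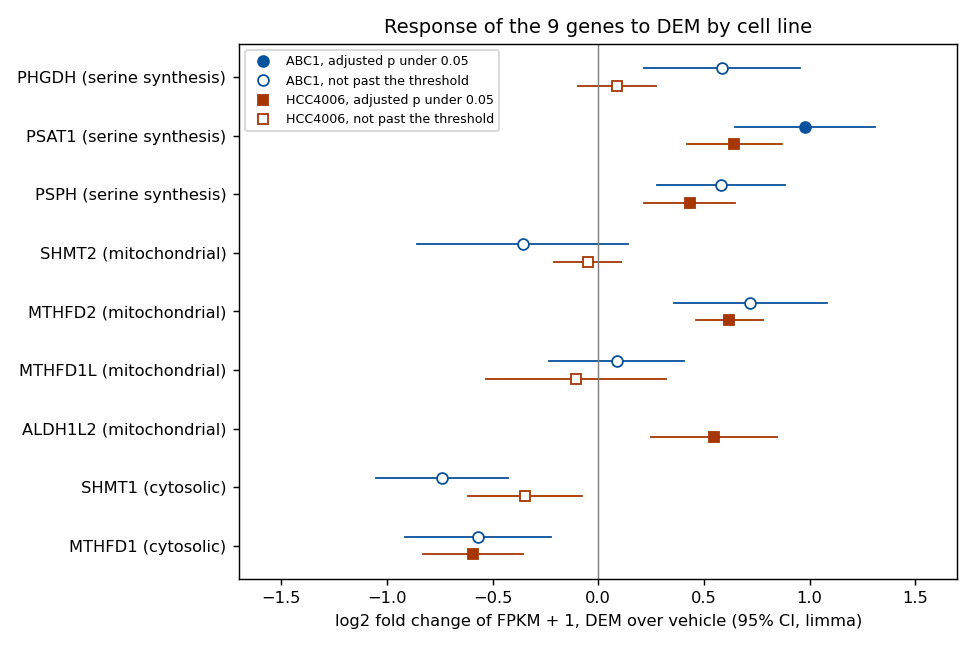
Log2 difference of FPKM + 1, DEM minus vehicle, for each gene in ABC1 (circles) and HCC4006 (squares), with 95% confidence intervals from limma (2 against 2 libraries), and filled symbols at an adjusted p under 0.05. Serine synthesis genes and *MTHFD2* lie to the right of 0, and *SHMT1* and *MTHFD1* to the left. The intervals of *SHMT2* and *MTHFD1L* in both lines and of *PHGDH* in HCC4006 include 0.

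In all, 1 of the 8 genes tested in ABC1 was called higher with DEM and 0 lower, and in HCC4006 4 of 9 were called higher and 1 lower. At an unadjusted p under 0.05 in limma, 4 of the 8 were higher and 2 lower in ABC1. Over all 12635 genes tested in ABC1, 0.768% were called higher and 0.435% lower, with 2771 genes at an unadjusted p under 0.05. In HCC4006, 8.45% of 13542 genes were called higher and 10.7% lower, 19.1% in either direction. In ABC1, 5 of the 9 genes were higher in both DEM libraries and 2 were lower in both, beside 25.5% and 28.2% of all genes tested. HCC4006 had 5 and 3 of 9, beside 29.3% and 35.3%. Over the members tested, the median log2 difference was 0.33 (ABC1) and 0.09 (HCC4006). The model of all 8 libraries, in which the 4 groups share a spread, called 4 genes higher (*MTHFD2*, *PHGDH*, *PSAT1* and *PSPH*) and 2 lower (*MTHFD1* and *SHMT1*) in ABC1. Over all genes it called 5.39% higher and 5.53% lower in ABC1. In HCC4006 this model called the same 5 of the 9 genes as the fit of the 4 libraries, and 5.16% of all genes higher and 6.19% lower. For none of the 8 genes tested in both lines did the response to DEM pass the test of a difference between the lines, the interaction term in limma (0 of 8 called, with *PHGDH* and *SHMT1*, 2 of 8, at an unadjusted p under 0.05). Of all 13682 genes, 2068 had such an unadjusted p, and 0.307% were called higher, 0.329% lower and 0.636% in either direction. For *MTHFD1* the 2 responses were nearest, with a difference of -0.02 (95% confidence interval -0.42 to 0.37), and for *PHGDH* they were farthest apart, at -0.50 (adjusted p = 0.226). *ALDH1L2* was near 0 in ABC1 and is not counted here. A p that misses the threshold does not show that the lines respond alike.

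The branches were set side by side within each library, which FPKM allows because it is scaled to gene length. The summed FPKM of the 4 mitochondrial genes was 3.10 and 3.36 times that of the 2 cytosolic genes in the ABC1 vehicle libraries and 5.58 and 5.86 times with DEM. In HCC4006 the ratio was 3.41 and 3.48 with vehicle and 5.85 and 5.82 with DEM. The lines thus had close ratios of these sums in either condition, and the DEM libraries were apart from the vehicle libraries. The closeness is of the sums only. The single-pair ratios of *SHMT2* to *SHMT1* and of *MTHFD1L* to *MTHFD1*, given below, differed between the lines in opposite directions. The mean ratio was 1.77 times as high with DEM in ABC1 and 1.69 times in HCC4006, a log2 change of 0.83 and 0.76. The median of the 3 single-pair ratios below, which in every library was the ratio of *MTHFD2* to *MTHFD1*, changed by 1.30 and 1.23. For 2 libraries set against 2, the exact two-sided permutation test has a smallest possible p of 0.33, so these ratios are given as a description.

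In both lines the mean mitochondrial sum was higher with DEM and the cytosolic sum lower. Of the mitochondrial genes, only *MTHFD2* had a higher mean in both lines (127 to 209 FPKM in ABC1 and 96.4 to 149 FPKM in HCC4006). That of *SHMT2* was lower in both (173 to 135 and 132 to 127 FPKM), so the sums show no rise of the whole branch. The higher ratios of *SHMT2* to *SHMT1* and of *MTHFD1L* to *MTHFD1*, given below, came mainly from lower cytosolic means. The mitochondrial sum was 1.14 times as high with DEM in ABC1 (315 ± 47.8 to 360.0 ± 37.2 FPKM, SD, n = 2, with overlapping libraries) and 1.19 times in HCC4006 (256 ± 1.98 to 305 ± 5.21 FPKM). The cytosolic sum was 0.647 times the vehicle level in ABC1 (97.2 ± 9.48 to 62.8 ± 4.32 FPKM) and 0.703 times in HCC4006 (74.4 ± 0.506 to 52.3 ± 1.09 FPKM). Among matched pairs of enzymes, the ratio of *MTHFD2* to *MTHFD1* moved most, in ABC1 from 1.76 ± 0.0605 to 4.34 ± 0.191 (SD, n = 2), and in HCC4006 from 2.08 ± 0.119 to 4.90 ± 0.310. That of *SHMT2* to *SHMT1* was 6.90 ± 0.673 with vehicle and 9.30 ± 1.77 with DEM in ABC1, and 4.73 ± 0.504 and 5.85 ± 0.274 in HCC4006. The ratio of *MTHFD1L* to *MTHFD1* was 0.203 ± 0.00521 with vehicle and 0.324 ± 0.0257 with DEM in ABC1, and 0.503 ± 0.0295 and 0.714 ± 0.109 in HCC4006, so *MTHFD1L* stayed under *MTHFD1* everywhere. Within the mitochondrial branch, *MTHFD1L* was 0.116 times *MTHFD2* with vehicle and 0.0746 times with DEM in ABC1, and 0.242 and 0.147 times in HCC4006.

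**Figure D3:**
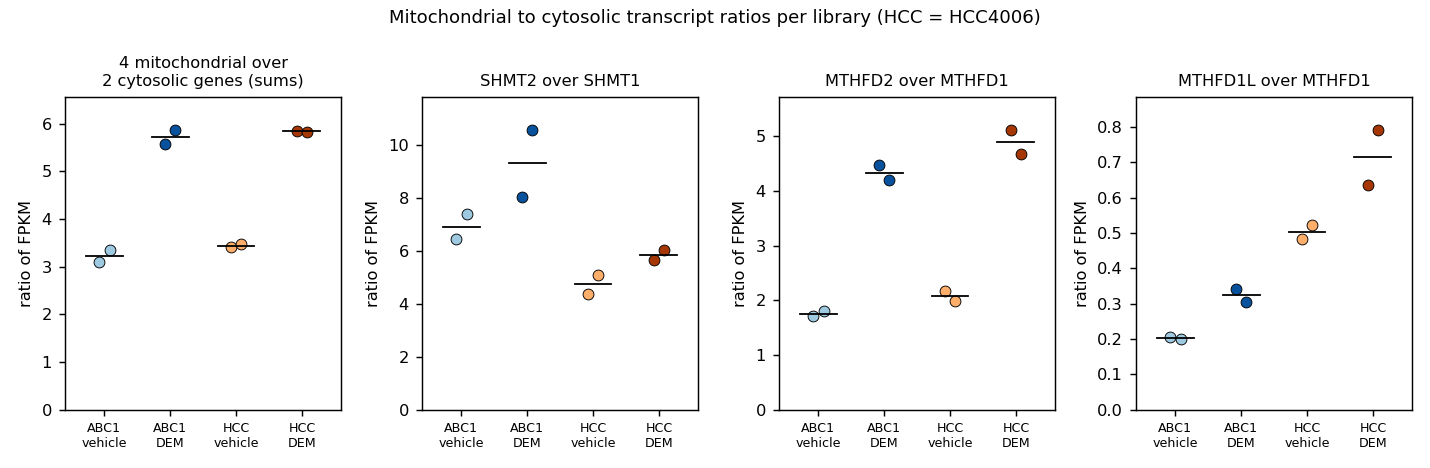
Ratios of FPKM of mitochondrial to cytosolic genes in each library (points) with group means as lines (n = 2), on linear axes from 0 that differ between panels. All 4 ratios are higher in both DEM libraries than in both vehicle libraries of each line, with the summed ratio at means of 3.23 (ABC1) and 3.44 (HCC4006) with vehicle and 5.72 and 5.84 with DEM. The mean FPKM of *SHMT2* was itself lower with DEM in both lines, as were those of *SHMT1* and *MTHFD1*.

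The 9 genes belong to a wider network, for which a list of 30 further genes of folate, glycine, methionine and serine metabolism was taken. In ABC1, 26 were tested, of which 1 was called higher with DEM and 0 lower, and the median log2 difference was -0.18. In HCC4006, 28 were tested, of which 4 were called higher and 3 lower (median log2 difference -0.21). Of all genes tested, 0.768% were called higher and 0.435% lower in ABC1, and 8.45% higher and 10.7% lower in HCC4006. The counts of the list in HCC4006 are thus near the background.

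The calls that were higher lay in transsulfuration and among other enzymes that act on serine. *CBS*, which joins serine to homocysteine on the way to cysteine, had 13.5 and 15.9 FPKM with vehicle and 28.9 and 32.5 FPKM with DEM in ABC1. It rose there by 1.02 on the log2 scale (adjusted p = 0.0452, standard error 0.14), and in HCC4006 by 0.28 from a level of 93.6 ± 0.0416 FPKM (adjusted p = 0.0476). Neither call of *CBS* held without any 1 of the line's libraries (adjusted p = 0.0744 to 0.318 in ABC1 and 0.0599 to 0.181 in HCC4006). *CTH*, the next enzyme, which yields cysteine, had 9.50 and 9.23 FPKM with vehicle and 22.0 and 23.5 FPKM with DEM in HCC4006. That rise of 1.20 (standard error 0.09, adjusted p = 0.00187) held under all 11 alternatives, while in ABC1 the difference was 0.28 from a level of 41.6 ± 1.49 FPKM (adjusted p = 0.245). In HCC4006, *SRR* (0.55, adjusted p = 0.0225) and *SDSL* (0.43, adjusted p = 0.0444), which act on serine, were also called higher.

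The calls that were lower, all in HCC4006, lay in thymidylate and purine synthesis and in methionine synthesis. *TYMS*, the thymidylate synthase, had 36.5 and 35.5 FPKM with vehicle and 11.5 and 14.3 FPKM with DEM. It fell by 1.42 on the log2 scale (adjusted p = 0.00218, standard error 0.12), and in ABC1 its value was -0.86 (adjusted p = 0.125). The call held without each library (adjusted p = 0.0124 to 0.0144) and was lost without the expression minimum (adjusted p = 0.0702). *MTR*, the methionine synthase, was at -0.40 (adjusted p = 0.0408), and *ATIC*, a purine enzyme that uses formyl-folate, at -0.25 (adjusted p = 0.0495). The calls of *SRR*, *SDSL*, *MTR* and *ATIC* were each lost without any 1 of the HCC4006 libraries (adjusted p = 0.0546 to 0.243). None of the 6 genes of folate uptake and retention, the 2 of mitochondrial serine import or the glycine cleavage genes was called in either line.

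**Figure D4:**
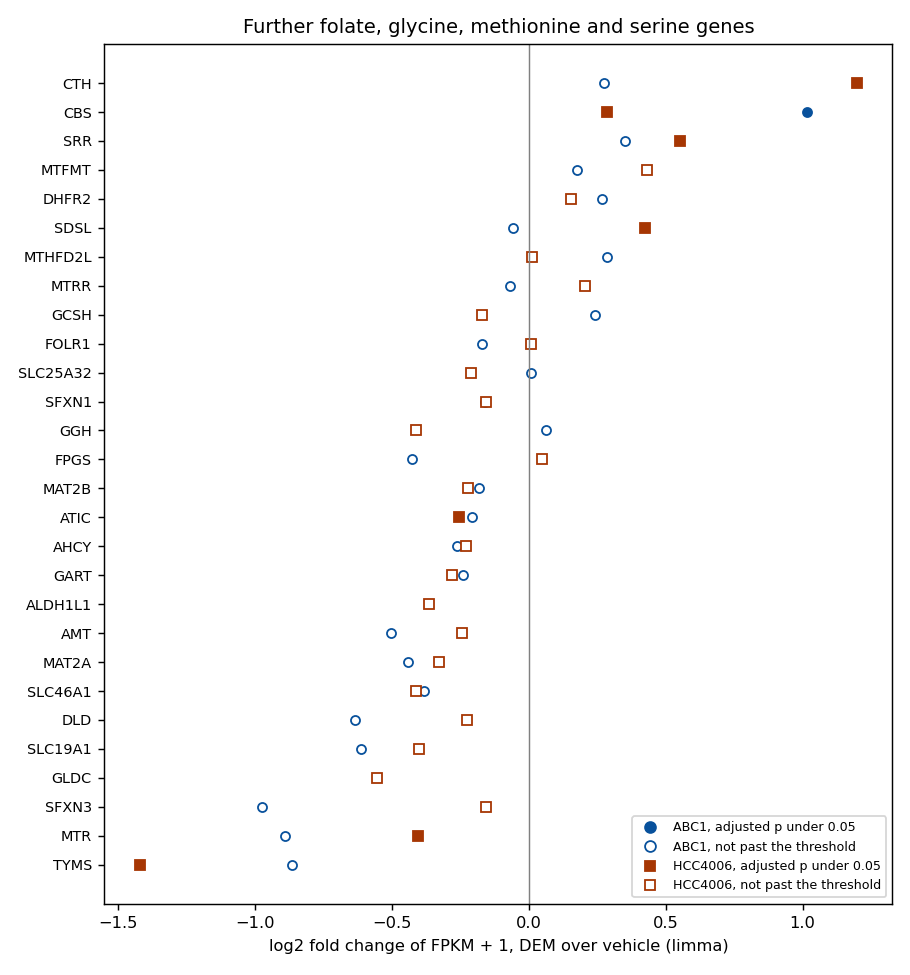
Log2 difference of FPKM + 1, DEM minus vehicle, of the listed genes of folate, glycine, methionine and serine metabolism that were tested, in ABC1 (circles) and HCC4006 (squares), with filled symbols at an adjusted p under 0.05 by limma. *CTH* and *CBS* lie at the right and *TYMS* at the left, and 17 of 26 circles and 18 of 28 squares lie left of 0.

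Genes of the ATF4 stress response were read beside the 9 genes. In ABC1, 7 of 8 listed genes were tested and 5 were called higher (*ASNS*, *TRIB3*, *CHAC1*, *DDIT3* and *CEBPB*), and in HCC4006 all 8 were tested and 7 were called higher, all but *SESN2* (0.36, adjusted p = 0.0572). These counts stand beside 0.768% and 8.45% of all genes called higher in the lines. The list was chosen with earlier results of these data known, so the counts are a description and no test of the list. The list's median log2 difference was 0.98 (ABC1) and 0.77 (HCC4006). *ATF4* itself had 249 and 292 FPKM with vehicle and 365 and 430 FPKM with DEM in ABC1, a difference of 0.55 that did not pass (adjusted p = 0.132). In HCC4006 *ATF4* had 188 and 202 FPKM with vehicle and 339 and 322 FPKM with DEM, a rise of 0.76 (adjusted p = 0.00285). *ASNS*, the asparagine synthetase, rose by 1.04 in ABC1 (adjusted p = 0.0482) and by 0.78 in HCC4006 (adjusted p = 0.00614). In ABC1 the calls of *ASNS*, *TRIB3* and *CEBPB* were lost without any 1 library (adjusted p = 0.0827 to 0.318), that of *DDIT3* without vehicle 0, vehicle 1 or DEM 0 (adjusted p = 0.286, 0.241 and 0.0551) and that of *CHAC1* without vehicle 0 or vehicle 1 (adjusted p = 0.194 and 0.137). In HCC4006 the calls of *CHAC1* (adjusted p = 0.0663 and 0.0543) and *NUPR1* (adjusted p = 0.0515 and 0.0632) were lost without DEM 0 or vehicle 1. Without the expression minimum, none of the 5 held in ABC1, and *TRIB3* and *DDIT3* held in HCC4006. The part of ATF4 in the values of the 9 genes was not tested.

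Among the 13682 genes tested over the 8 libraries, those whose log2(FPKM + 1) followed a member most closely were found by Pearson's r, as a description over libraries that share lines and treatment. For *PHGDH* they were *VAMP1* (r = 0.994), *TMEM41B* (0.993) and *RAB5A* (0.988), which share its higher level in ABC1 with DEM. For *MTHFD2* they were *SMG5* (0.986), *KPNA4* (0.985) and *TIMM44* (0.982), and for *MTHFD1* they were *BUD13* (0.997), *PARP2* (0.994) and *TRMT12* (0.991). Of 14 pseudogenes named for the 9 genes, *PSPHP1* had the highest level, 0.603 FPKM, and the others stayed at or under 0.172 FPKM. Besides *SMCR8*, the opposite-strand genes *WASHC4* and *NOPCHAP1* overlap *ALDH1L2*, at mean levels of 15.05 and 10.3 FPKM in HCC4006 with DEM against 11.9 and 15.03 FPKM with vehicle. Other overlapping genes with values were lower. The highest were *NDUFA4L2* at *SHMT2* (at most 4.41 FPKM) and *ZBTB25* at *MTHFD1* (at most 3.94 FPKM), both on the opposite strand.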

How the data were processed

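Poly(A)-selected, strand-specific libraries of 8 samples were sequenced by the authors, who deposited an FPKM value per gene and library. The paper's methods name TopHat as the aligner and Cufflinks for the FPKM values. The submitters' processing notes name STAR 2.5.3a, Cuffnorm and HTSeq. Both are on hg19, and which of them made these values was not settled. Tables of the authors' own comparison of DEM with vehicle by DESeq2 (base means, fold changes and p-values) were not used. FPKM was taken as deposited, and its depth is unknown. Symbols were matched to 55534 of 57815 identifiers through GENCODE on GRCh37.

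From these values, limma 3.58.1 in R 4.3.3, with a mean-variance trend, was run on log2(FPKM + 1) over genes whose mean reached 1 FPKM in the libraries fitted. DEM was compared with vehicle in the 4 libraries of each line, and the lines and the interaction in a model of all 8. Calls were made at a Benjamini-Hochberg adjusted p under 0.05 over all genes tested, with no minimum fold change. Differences on the log2(FPKM + 1) scale understate the change of low genes. The script was tested on simulated data. Alternatives were a pseudocount of 0.1, no expression minimum or one of 5 FPKM, median-of-ratios scaling, no trend, the replicate block, a model of all 8 libraries, and leaving out each library, where a lone library is assumed to vary like the others. The 9 genes and the lists were chosen with earlier results of these data known. Some genes of the wider folate list are not reported here. Named were all 9 genes, the called genes of the lists, the NRF2 check genes, pseudogenes, and the 3 genes nearest to *PHGDH*, *MTHFD2* and *MTHFD1* by Pearson's r. Promoter sequences are from RefSeq on GRCh38.p14 and gene positions from GRCh37.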

Additional observations from a re-analysis of the deposited data

Results flagged for a closer look

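*CTH*, which encodes the enzyme that yields cysteine in transsulfuration, was singled out because its response to DEM differed between the lines. The log2 response of HCC4006 minus that of ABC1 was 0.92 (standard error 0.13), and limma gave an adjusted p of 0.0357 over 13682 genes. Both DEM libraries were above both vehicle libraries in each line, with means of 9.36 ± 0.190 and 22.8 ± 1.09 FPKM (SD, n = 2) in HCC4006 and of 41.6 ± 1.49 and 50.6 ± 0.858 FPKM (SD, n = 2) in ABC1. The lines started from different levels, and the HCC4006 DEM libraries lay below the ABC1 vehicle libraries. The difference was 0.88 to 0.97 without any 1 of the 8 libraries and did not pass in any of these fits (adjusted p = 0.0649 to 0.170), nor with a pseudocount of 0.1 (adjusted p = 0.0534) or with the replicate block (adjusted p = 0.0697). Over all genes, 0.636% were called for such a difference.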

How the results depend on the processing

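The 9 genes kept their direction under every setting that kept all libraries, and 8 of their values turned when 1 library was left out. Without 1 library, the response of *MTHFD1L* in HCC4006 lay between -0.35 and 0.14, turning to 0.14 without DEM 0 and to 0.0037 without vehicle 1. The difference between the lines' responses lay between -0.24 and 0.043 for *MTHFD2*, between -0.44 and 0.051 for *MTHFD1L* and between -0.13 and 0.084 for *MTHFD1*, where it also turned to 0.0571, 0.0706 and 0.0283, and none of these was called.
In ABC1, where 1 of the 9 genes and 97 of all genes were called higher and 0 and 55 lower, the counts in this order were 0, 0, 0 and 0 by limma without the expression minimum (3883 genes at an unadjusted p under 0.05). They were 1, 137, 1 and 94 with a minimum of 5 FPKM, 2, 185, 1 and 121 with median-of-ratios scaling, 0, 27, 0 and 6 without the trend, and 4, 738, 2 and 756 in the model of all 8 libraries. Leaving out 1 library gave 0 of the 9 higher, 10 to 51 of all genes higher and 8 to 18 lower. In HCC4006, with 4 of the 9 and 1144 of all genes higher and 1 and 1447 lower, the counts were 1, 177, 0 and 193 without the minimum, and 706 and 847 of all genes in the model of all 8 libraries. Without 1 library they were 2 to 3 of the 9 and 290 to 464 of all genes higher, and 0 to 1 and 344 to 564 lower. With the replicate number as a replicate block, 4 of the 9 were called higher (*MTHFD2*, *PHGDH*, *PSAT1* and *PSPH*) and 3 lower (*MTHFD1*, *SHMT1* and *SHMT2*) in ABC1 (1185 and 1163 of all genes). In HCC4006 it called 4 higher and 2 lower (*MTHFD1* and *SHMT1*). The deviations of same-numbered libraries correlated with r = 0.258 in ABC1 and 0.0544 in HCC4006, and with 2 pairs a line the libraries share only a number. The block left 5 and 8 genes with a different response between the lines, against 42 and 45 without it, 11 and 9 with a pseudocount of 0.1, 173 and 230 without the minimum, and 0 to 17 and 2 to 27 without 1 library. For the lines with vehicle, 5 of the 9 were lower in HCC4006 with median-of-ratios scaling and 2 to 5 without 1 library, against 3. The log2 change of the branch ratio was 1.30 in ABC1 and 1.23 in HCC4006 as the median of the single pairs, against 0.83 and 0.76 by sums. The cause of these shifts was not tested, apart from the fewer libraries in the fits that leave one out. FPKM carries no depth, so limits from counting are unknown.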
